A study of Mus musculus with 24 samples.

Results

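The levels of 6 genes, Msi2, Numb, Numbl, Syncrip, Igf2bp2 and Igf2bp3, were examined in bulk RNA-seq libraries of LSKs sorted from mouse marrow (lineage-negative cells positive for Sca-1 and c-Kit, the fraction that holds hematopoietic stem and multipotent progenitor cells). They were chosen by symbol, as Musashi-2, its known target and partners, and the IGF2BP genes linked to blast crisis (BC) of chronic myelogenous leukemia (CML), and they are 6 of the 24091 genes in the deposited table. All 6 were among the 13520 genes that passed the filter on low counts. There were 24 libraries, 1 per mouse, in 4 groups of 6 mice (3 females and 3 males each), all on a B6 background. WT LSKs carried neither alteration, miR-142 KO LSKs lacked both copies of Mir142 from the germline, CP CML LSKs (chronic phase) carried the SCLtTA/BCR-ABL transgenes with Mir142 intact, and BC CML LSKs carried the same transgenes on the miR-142 KO background. BCR-ABL is switched on by a driver under the SCL promoter, which is active in stem and progenitor cells, once tetracycline is withdrawn, and the CML mice were sampled 2 weeks after induction. The transgenic mouse with intact miR-142 stays in chronic phase, so that BC CML here stands for this transgene combined with germline loss of miR-142. Ages are not given in the sources used here.

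Musashi-2, the product of Msi2, is an RNA-binding protein that attaches to short motifs in mRNAs and alters their translation and stability, and it is known for sustaining hematopoietic stem cells and for its part in aggressive myeloid leukemia. NUMB, whose transcript is a known Musashi target, is a membrane adaptor that is divided unequally between daughter cells and opposes Notch signaling, and NUMBL is its close homolog. In human CML, the shift from chronic phase to blast crisis has been tied to more Musashi-2 and less NUMB protein. SYNCRIP is an hnRNP-type RNA-binding protein that interacts with Musashi-2 and shares targets with it, and IGF2BP2 and IGF2BP3 are RNA-binding proteins that stabilize bound mRNAs, including those carrying m6A. IGF2BP3 is abundant in fetal tissue and returns in some leukemias. RNA levels are what was measured here, so none of the values bears on protein.

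Mir142 makes the microRNA that separates the groups. Its 2 mature arms are shown because each could in principle pair with the 3′ UTRs of the 6 genes. They are given as in RefSeq (GRCm38.p6) 5′ to 3′, with the seed (bases 2 to 8) in capitals.

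mmu-miR-142a-3p: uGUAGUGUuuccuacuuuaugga
mmu-miR-142a-5p: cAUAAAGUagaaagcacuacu

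The 3p arm lies at chr11:87756903-87756925 and the 5p arm at chr11:87756867-87756887, both on the plus strand. The letters ACACTAC (7 bases) and ACACTACA (8 bases, with the A opposite the first base of the microRNA) match the 3p seed, and ACTTTAT and ACTTTATA match the 5p seed. They were searched on the sense strand of the longest annotated 3′ UTR of each gene (GENCODE on GRCm38, the build called mm10), and a site with the 8 letters is shown only as such. Of the 6 genes, 4 held a match. The sites follow, 30 bases each from the sense strand, with the matching letters in capitals.

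Msi2, 3p, 8 bases: cagtcctgggcacagACACTACAcaaggca
Igf2bp2, 3p, 7 bases: tgtgaagaaaccatgACACTACcagactgc
Syncrip, 3p, 7 bases: ttttcaatagtatctACACTACttctggaa
Syncrip, 5p, 7 bases: gtagctgacagttcaACTTTATtttggtat
Igf2bp3, 5p, 8 bases: ttgaaaattttatatACTTTATAaaaactc
Igf2bp3, 5p, 7 bases: tctgtgagaatgtatACTTTATgctctctg

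All of these windows are on the minus strand. The Msi2 window is at chr11:88340225-88340254, and the match within it starts at base 4453 of a 3′ UTR of 5310 bases. The Igf2bp2 window is at chr16:22059112-22059141. The Syncrip windows are at chr9:88447571-88447600 and chr9:88447420-88447449, past the 3′ end of the Syncrip span in the deposited table, so they belong to an annotated UTR that is longer than the gene model given there. The Igf2bp3 windows are at chr6:49086717-49086746 and chr6:49087165-49087194. Numb (3′ UTR of 1405 bases) and Numbl (732 bases) held none of these letters, which says nothing about other ways of pairing. Over 21010 genes with an annotated 3′ UTR, 6.03% held ACACTAC and 2.64% held ACACTACA, against 14.3% for ACTTTAT and 4.79% for ACTTTATA, the first of each pair including the second. A match of letters is a description and was not tested as a binding site.

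As a check of the labels, Mir142 (chr11:87756864-87756927) had 94 to 127 counts per WT library, 68 to 153 per CP CML library, and 0 in every miR-142 KO and BC CML library. Library totals ranged from 16267965 to 24687077 counts. The genes of the LSK gate, Ly6a (encoding Sca-1) and Kit, and Cd34, which is not part of the gate, were present in all libraries. Their summed levels ran from 1869 to 2497 CPM (counts relative to the library total, scaled by TMM). Differences between groups were tested with edgeR's quasi-likelihood test on all 13520 genes, and p-values were adjusted by the Benjamini-Hochberg method over all of them. Changes are log2 fold changes with their standard error (SE), and the threshold for the adjusted p was 0.05. The miR-142 KO library of replicate 3 stood apart from the other 5 of its group in Igf2bp2 and Igf2bp3, and values without it are given where leaving it out changed the call of a gene named below.

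Of the 6 genes, 2 passed the threshold between BC CML and CP CML LSKs, Msi2 as lower and Igf2bp3 as higher in BC CML, where 38.0% of all tested genes passed. In each of miR-142 KO against WT (36.3% of genes), CP CML against WT (45.4%) and BC CML against miR-142 KO LSKs (39.6%), 4 passed: Msi2, Numb, Igf2bp2 and Igf2bp3. The shares among so few genes are not read as a result, and the sizes and directions are described gene by gene. For the difference between the changes with loss of miR-142 in the presence and absence of BCR-ABL, 0 of the 6 passed by edgeR and by DESeq2, and 1 (Igf2bp2) had an unadjusted p under 0.05.

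Msi2, at chr11:88339382-88718267 on the minus strand, was lower in LSKs that lacked miR-142, lower in LSKs that carried BCR-ABL, and lowest where both held. Its level in WT LSKs was 412 CPM in the lowest library, 549.7 at the median and 702 in the highest. In miR-142 KO LSKs it was 292, 339.5 and 404 CPM, and in CP CML LSKs 303, 352 and 426 CPM. In BC CML LSKs it was 229.9, 262 and 289.6 CPM, so that every BC CML library lay below every library of the other 3 groups. The miR-142 KO range also lay wholly below the WT range, while the highest CP CML library, at 426 CPM, reached above the lowest WT library, at 412 CPM.

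Between BC CML and CP CML, Msi2 fell by 0.46 on the log2 scale (SE 0.10, 1.37-fold lower, edgeR adjusted p = 0.001309), with a 95% confidence interval from -0.67 to -0.24. Of all tested genes 20.4% passed as higher and 17.6% as lower in BC CML, and the groups did not overlap for 20.7%, of which Msi2 was among the 9.29% that were lower. In miR-142 KO against WT LSKs it fell by 0.67 (SE 0.10, 1.59-fold lower, edgeR adjusted p = 2.476e-05), where 36.3% of genes passed, 16.4% lower, and 6.15% were lower without overlap. Msi2 was thus lower without miR-142 both with and without BCR-ABL, and the difference between the pair of changes was 0.21 (SE 0.15, 95% confidence interval -0.09 to 0.51, edgeR adjusted p = 0.4636). That difference had an adjusted p under 0.05 for 3.99% of genes (1.91% positive). The study itself reports the opposite direction for Msi2, with more mRNA and protein in LSKs without miR-142, in leukemic and normal mice. Its methods describe Q-RT-PCR for mRNA levels, a different measure from the RNA-seq used here, and protein was not measured here. It also reports more Msi2 mRNA and protein in CP CML LSKs given a miR-142 inhibitor. In BC CML LSKs given a miR-142 mimic it reports less of both. The study proposes lost targeting by miR-142 as the cause, citing a predicted conserved site in MSI2. The reason why these reports and the RNA-seq values disagree was not tested.

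BCR-ABL also went with less Msi2 on both backgrounds. The change was -0.62 in CP CML against WT LSKs (SE 0.10, 1.54-fold lower, edgeR adjusted p = 5.775e-05) and -0.42 in BC CML against miR-142 KO LSKs (SE 0.10, 1.33-fold lower, edgeR adjusted p = 0.003249). In these comparisons 22.9% and 19.3% of genes passed as lower, and 9.87% and 4.48% were lower without overlap. All 4 comparisons draw on the same 24 libraries, each group entering 2 of them, so their values are set side by side and are not independent. In each group the mean was higher in the 3 males than in the 3 females, with no overlap between the sexes in CP CML (361 to 426 against 303 to 344 CPM), and the order of the 4 groups was led by WT and closed by BC CML in both sexes. With females alone the change between BC CML and CP CML was -0.39 (edgeR adjusted p = 0.06145), and with males alone it was -0.54 (edgeR adjusted p = 0.007219), each from 3 mice per group.

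**Figure D1:**
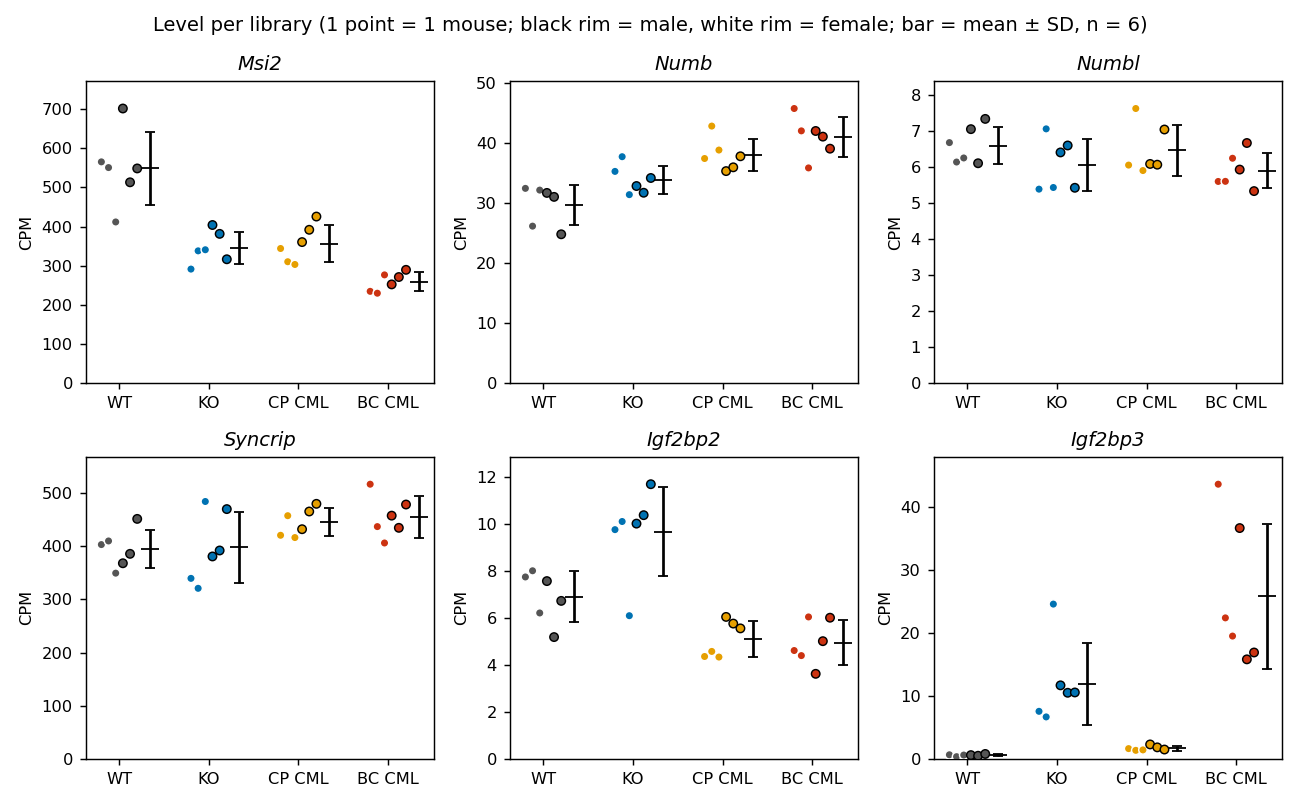
Level in CPM (vertical axis, from 0) of the 6 genes in each of the 24 libraries, by group (horizontal axis; KO is miR-142 KO), with the mean and SD of 6 mice beside each group. Msi2 steps down from WT to BC CML, Igf2bp3 is near 0 in WT and CP CML and reaches 24.6 CPM in 1 miR-142 KO and 43.65 CPM in 1 BC CML library, and the ranges of Numbl and Syncrip overlap in all groups.

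Reads in the span of Msi2 can also come from other transcripts. The gene 0610039H22Rik lies on the plus strand at chr11:88619251-88623426, inside the span of Msi2, and C030037D09Rik, at chr11:88718643-88728572, starts just past the 5′ end of Msi2. The strand setting of the counting is not given in the sources used here, so reads of 0610039H22Rik and of Msi2 introns could not be told apart. Its level was 1.57 CPM in WT and 0.43 CPM in BC CML LSKs on average, against 549 and 259 CPM for Msi2, and it fell with Msi2, by 0.98 on the log2 scale in BC CML against CP CML (edgeR adjusted p = 0.01429) and by 1.39 in miR-142 KO against WT LSKs (edgeR adjusted p = 0.0005723). C030037D09Rik fell by 0.65 (edgeR adjusted p = 0.01354) and by 1.33 (edgeR adjusted p = 1.514e-05) in the same comparisons.

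Msi2 and Mir142 are neighbors on chromosome 11. The 3′ end of Msi2 lies 582.5 kb from Mir142 and its 5′ end 961.3 kb away. Within 1 Mb of Mir142 there were 39 other genes in the table, 29 of them tested, Msi2 and the overlapping Mir142b among them. In BC CML against CP CML LSKs 7 rose and 6 fell (44.8%), and in miR-142 KO against WT LSKs 7 rose and 5 fell (41.4%), beside 38.0% and 36.3% of all genes. The fallen genes of both comparisons include Msi2 itself and Mir142b. Mir142b had a mean of 0 CPM in both groups without miR-142, so its fall reflects the targeted locus. Between Mir142 and Msi2 lie 15 genes, of which 9 were tested. Of these, Tspoap1, the gene next to Mir142, rose by 6.54 on the log2 scale in BC CML against CP CML LSKs (edgeR adjusted p = 2.602e-18) from a mean of 47.8 to 4442 CPM, and Srsf1, a splicing factor gene, rose by 0.22 (edgeR adjusted p = 0.03005). Mks1, a ciliary gene, fell by 0.32 (edgeR adjusted p = 0.002721), and Epx, encoding eosinophil peroxidase, fell by 2.97 (edgeR adjusted p = 0.003496). In miR-142 KO against WT LSKs 3 of the 9 rose and 0 fell (33.3%, beside 36.3% of all genes), and Tspoap1 rose by 7.55 (edgeR adjusted p = 2.66e-19). The changes of Msi2 were far smaller than those of the gene beside Mir142. A part of the deleted locus itself in the level of Msi2 was not tested.

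**Figure D2:**
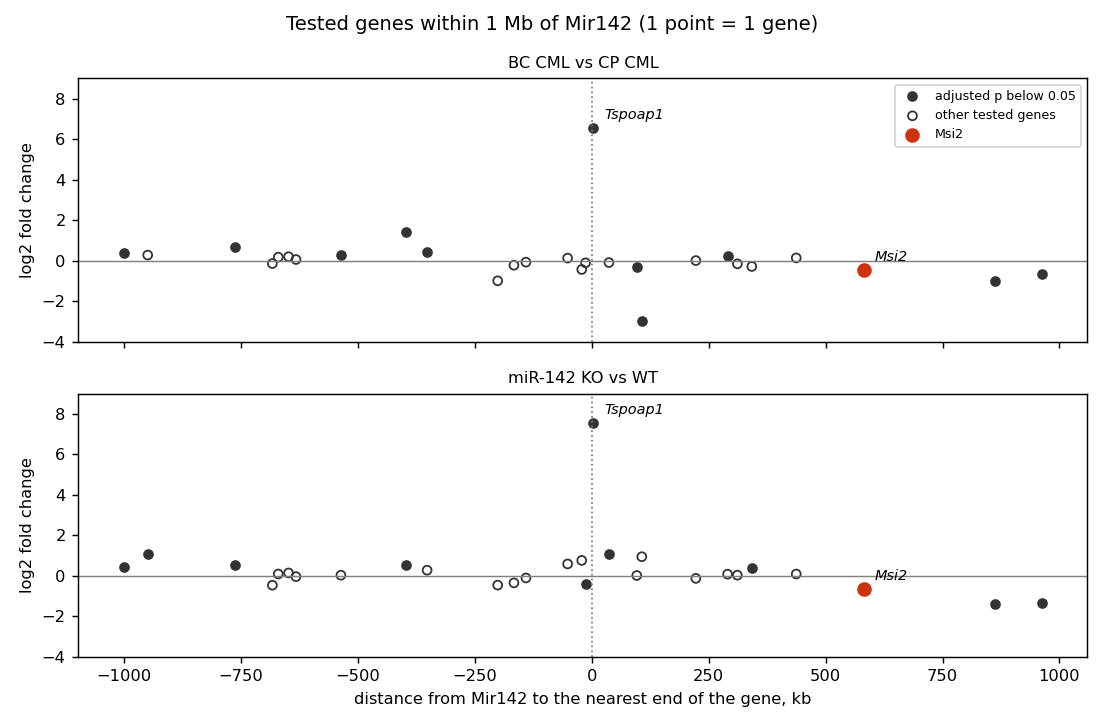
Log2 fold change (vertical axis) of tested genes within 1 Mb of Mir142 against the distance in kb from Mir142 to the nearest end of each gene (horizontal axis, negative before Mir142), in BC CML against CP CML and in miR-142 KO against WT LSKs. Mir142b, which overlaps Mir142, is not drawn, Tspoap1 stands at 6.54 and 7.55, and Msi2 (red) lies below 0 in both panels at 582.5 kb.

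Numb, the Musashi target at chr12:83794034-83921934 on the minus strand, went the other way by smaller steps. In WT LSKs its lowest, median and highest values were 24.8, 31.4 and 32.5 CPM, and in miR-142 KO LSKs 31.4, 33.6 and 37.8 CPM. In CP CML LSKs they were 35.4, 37.7 and 42.9 CPM, and in BC CML LSKs 35.9, 41.6 and 45.8 CPM. The CP CML and BC CML ranges both lay above the WT range, and overlapped each other over most of their length.

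Between BC CML and CP CML the difference in Numb was 0.11 (SE 0.07, 95% confidence interval -0.04 to 0.26, edgeR adjusted p = 0.2467) and missed the threshold. Numb rose in CP CML against WT LSKs by 0.36 (SE 0.07, 1.28-fold, edgeR adjusted p = 0.0004144), without overlap. In that comparison 45.4% of genes passed the threshold, 22.5% higher, and 21.8% did not overlap, 11.9% higher. It also rose in BC CML against miR-142 KO LSKs by 0.27 (SE 0.07, edgeR adjusted p = 0.004444), a comparison in which 39.6% of genes passed and 20.3% were higher (6.09% without overlap). In miR-142 KO against WT LSKs the value was 0.19 (SE 0.07, edgeR adjusted p = 0.04445), just within the threshold, and the likelihood ratio test of edgeR placed it outside (adjusted p = 0.05327). It was outside as well with upper quartile scaling (0.14, edgeR adjusted p = 0.1311). The difference between the pair of changes with loss of miR-142 was -0.08 (SE 0.10, edgeR adjusted p = 0.7216).

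Per length of transcript, Msi2 RNA exceeded Numb RNA in every library, and the ratio of the pair narrowed across the groups. Taken from RPKM (CPM divided by length in kilobases), it was 6.15 ± 1.23 (SD, n = 6) in WT LSKs, with a range of 4.22 to 7.29. The CP CML group had 3.11 ± 0.54 (2.39 to 3.71), the miR-142 KO group 3.38 ± 0.56 (2.72 to 4.05) and the BC CML group 2.10 ± 0.34 (1.69 to 2.54). The BC CML range lay below the WT and miR-142 KO ranges and overlapped the CP CML range. This ratio restates the 2 levels above and was not tested.

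Numbl, the homolog of Numb at chr7:27258761-27282150 on the plus strand, had a mean between 5.91 CPM in BC CML and 6.60 CPM in WT LSKs and ranged over all 24 libraries from 5.34 to 7.64 CPM. None of its differences passed the threshold. The widest was -0.13 (SE 0.10, 95% confidence interval -0.33 to 0.06, edgeR adjusted p = 0.2812) in BC CML against CP CML LSKs, and in miR-142 KO against WT LSKs it was -0.12 (95% confidence interval -0.32 to 0.07, edgeR adjusted p = 0.3224). Small differences within these intervals cannot be told from none.

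Syncrip, encoding the RNA-binding partner of Musashi-2 at chr9:88449364-88482397 on the minus strand, was the most abundant of the 6 genes per length in every group. Its lowest, median and highest values were 349, 394 and 451 CPM in WT and 320.7, 386 and 484 CPM in miR-142 KO LSKs. In CP CML LSKs they were 416, 444.5 and 479.5 CPM, and in BC CML LSKs 406, 447 and 516 CPM. All 4 ranges overlapped. The difference was 0.03 (SE 0.09, edgeR adjusted p = 0.8) between BC CML and CP CML and 0.01 (SE 0.09, edgeR adjusted p = 0.9279) between miR-142 KO and WT LSKs. With BCR-ABL the values were 0.17 in CP CML against WT LSKs (SE 0.09, edgeR adjusted p = 0.1002) and 0.19 in BC CML against miR-142 KO LSKs (SE 0.09, edgeR adjusted p = 0.07545). The second came under the threshold without miR-142 KO replicate 3 (0.25, edgeR adjusted p = 0.0168) or without replicate 6 (0.23, edgeR adjusted p = 0.03429), and the first did so without miR-142 KO replicate 3 (0.19, edgeR adjusted p = 0.04995), without WT replicate 6 (0.22, edgeR adjusted p = 0.04874) or with only the libraries compared (0.18, edgeR adjusted p = 0.02962).

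Igf2bp2 and Igf2bp3 encode proteins of one family but had different patterns. Igf2bp2, at chr16:22059009-22163299 on the minus strand, was highest in miR-142 KO LSKs and lowest in the CML groups. Its lowest, median and highest values were 5.19, 7.16 and 8.02 CPM in WT and 6.11, 10.1 and 11.7 CPM in miR-142 KO LSKs. In CP CML LSKs they were 4.34, 5.07 and 6.05 CPM, and in BC CML LSKs 3.63, 4.82 and 6.05 CPM. The lowest miR-142 KO value came from replicate 3, and the other 5 miR-142 KO libraries lay above every library of the other groups.

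Igf2bp2 rose in miR-142 KO against WT LSKs by 0.49 (SE 0.15, 1.40-fold, edgeR adjusted p = 0.01305), and by 0.60 (edgeR adjusted p = 0.001411) without replicate 3, although with females alone, replicate 3 among them, the value was 0.24 (edgeR adjusted p = 0.4558). It fell in CP CML against WT LSKs by 0.43 (SE 0.15, 1.35-fold lower, edgeR adjusted p = 0.0227). That call was lost on leaving out WT replicate 2 (-0.38, edgeR adjusted p = 0.06473) or 4 (-0.40, edgeR adjusted p = 0.05569), or CP CML replicate 1 (-0.38, edgeR adjusted p = 0.06238), 2 (-0.39, edgeR adjusted p = 0.06278) or 3 (-0.38, edgeR adjusted p = 0.06668), and with males alone (-0.17, edgeR adjusted p = 0.5286). It also fell in BC CML against miR-142 KO LSKs by 0.97 (SE 0.15, 1.95-fold lower, edgeR adjusted p = 4.68e-05) without overlap, as 4.48% of genes did. Between BC CML and CP CML the difference was -0.05 (SE 0.15, 95% confidence interval -0.36 to 0.27, edgeR adjusted p = 0.8345). The difference between the pair of miR-142 changes was -0.53 (SE 0.21, edgeR adjusted p = 0.1626), and -0.66 (edgeR adjusted p = 0.04159) without miR-142 KO replicate 3.

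Igf2bp3, at chr6:49085218-49214954 on the minus strand, changed more than any other of the 6 genes. It was close to the detection limit in WT LSKs, where the libraries held 8 to 18 counts, and had 27 to 54 counts in CP CML, 151 to 556 in miR-142 KO and 372 to 926 in BC CML libraries. In CPM the lowest, median and highest values were 0.36, 0.61 and 0.79 in WT and 1.36, 1.56 and 2.30 in CP CML LSKs. They were 6.67, 10.5 and 24.6 CPM in miR-142 KO and 15.8, 21.0 and 43.65 CPM in BC CML LSKs. The lowest library without miR-142, at 6.67 CPM, was thus above the highest library with it, at 2.30 CPM, and the CP CML range lay wholly above the WT range.

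In BC CML against CP CML LSKs Igf2bp3 rose by 3.94 on the log2 scale (SE 0.31, 15.3-fold, 95% confidence interval 3.29 to 4.59, edgeR adjusted p = 1.59e-09), with 57th place among the 13520 genes by size of change, and 11.4% of genes were higher without overlap there. In miR-142 KO against WT LSKs it rose by 4.33 (SE 0.34, 20.1-fold, 95% confidence interval 3.62 to 5.04, edgeR adjusted p = 1.792e-09), with 34th place, and 8.31% of genes were higher without overlap. Without miR-142 KO replicate 3, the highest library of its group at 24.6 CPM, the second change was 4.0 (edgeR adjusted p = 3.484e-10). The difference between the pair of changes was -0.39 (SE 0.45, 95% confidence interval -1.32 to 0.53, edgeR adjusted p = 0.6913), and -0.076 (edgeR adjusted p = 0.93) without that library.

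With BCR-ABL the rise was smaller. Igf2bp3 rose by 1.51 in CP CML against WT LSKs (SE 0.36, 2.84-fold, edgeR adjusted p = 0.001959), where the WT counts were few, and by 1.11 in BC CML against miR-142 KO LSKs (SE 0.27, 2.16-fold, edgeR adjusted p = 0.002534). The second value was 1.44 (edgeR adjusted p = 3.54e-05) without miR-142 KO replicate 3, the single library of its group that reached into the BC CML range. With females alone neither passed the threshold (1.43, edgeR adjusted p = 0.1203, and 1.14, edgeR adjusted p = 0.1321), while with males alone both did (1.56, edgeR adjusted p = 0.0117, and 1.08, edgeR adjusted p = 0.01224). The rise with loss of miR-142 passed in both sexes, from 3.62 in males to 4.26 in females for BC CML against CP CML LSKs.

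**Figure D3:**
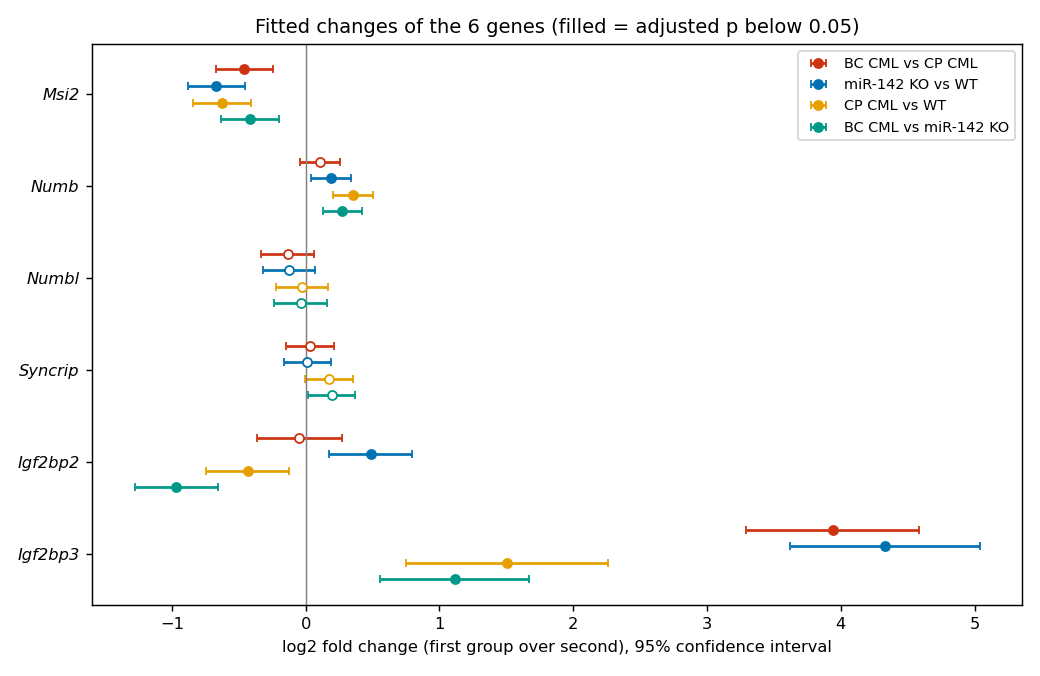
Log2 fold change of the 6 genes (horizontal axis) in the 4 comparisons of groups, with 95% confidence intervals and filled points where the adjusted p was below 0.05. Igf2bp3 stands at 3.94 and 4.33 in the comparisons with and without miR-142, Msi2 is negative in all 4, and the intervals of Numbl include 0 in all 4.

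Within the family, the ratio of Igf2bp3 to Igf2bp2 per length was 0.05 ± 0.02 (SD, n = 6) in WT, 0.21 ± 0.03 in CP CML, 0.89 ± 0.81 in miR-142 KO and 3.54 ± 2.08 in BC CML LSKs. Igf2bp3 was below Igf2bp2 in every WT and CP CML library (highest ratios 0.07 and 0.24) and above it in every BC CML library (lowest ratio 1.76), and the miR-142 KO ratios ran from 0.41 to 2.53. Igf2bp1, encoding the remaining member of the family, had at most 2 counts in any library, and Msi1, the paralog of Msi2, had at most 6. Neither passed the filter, and with 3 counts as the limit that a count of 0 allows (counting error only), no change could be read from them at this depth.

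The levels set per length against all 13520 tested genes give the scale of these changes. In RPKM, Msi2 stood above 90.4% of them in WT LSKs, above 81.5% and 80.8% in the CP CML and miR-142 KO groups, and above 72.4% in BC CML LSKs. Syncrip stood above 90.4% to 91.6% of genes in all groups, and Numb above 44.4% in WT and 52.8% in BC CML LSKs. Igf2bp3 stood above 2.37% of genes in WT and 6.83% in CP CML but 22.7% in miR-142 KO and 32.3% in BC CML LSKs, and among the 6 genes it moved from last place in WT and CP CML LSKs to the fourth in BC CML LSKs.

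The order of the 4 groups was also compared for neighboring means by an exact permutation test on CPM (two-sided, 924 splits of 12 libraries, smallest possible p 0.002165), with adjustment over 18 pairs. The order came from the means of these same libraries. The pairs were thus set by the values under test, and the p-values only describe the steps. For Msi2 the order was WT, CP CML, miR-142 KO and BC CML, and CP CML (356 CPM) and miR-142 KO (345 CPM) did not differ beyond their spread (exact permutation adjusted p = 0.7938), while the steps above and below them did (exact permutation adjusted p = 0.01948 and 0.01299). For Igf2bp3 the order was BC CML, miR-142 KO, CP CML and WT, and each step passed (exact permutation adjusted p = 0.04383, 0.01299 and 0.01299). For Igf2bp2 the order was miR-142 KO, WT, CP CML and BC CML, with the first pair of steps past the threshold (exact permutation adjusted p = 0.03896 for each) and the last not (exact permutation adjusted p = 0.7976). For Numb the order was BC CML, CP CML, miR-142 KO and WT, and the step from CP CML to miR-142 KO passed (exact permutation adjusted p = 0.03896) while the others did not (exact permutation adjusted p = 0.2267 and 0.06061). No neighboring pair passed for Numbl or Syncrip, with exact permutation adjusted p from 0.2267 to 0.9134.

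Msi2 and Igf2bp3 ran in opposite directions across libraries. Over all 24 libraries the Pearson correlation of their log2 CPM was -0.80, and that of Msi2 with Numb was -0.79. These correlations describe 24 libraries in 4 groups whose means differ, and they largely restate the group differences.

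**Figure D4:**
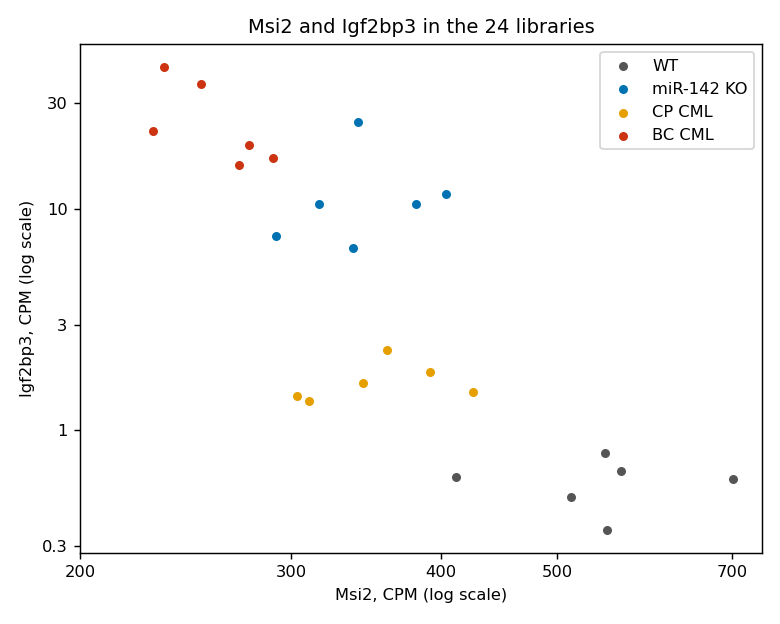
Igf2bp3 (vertical axis, CPM, log scale) against Msi2 (horizontal axis, CPM, log scale) in the 24 libraries, 1 point each, colored by group. The 6 WT libraries lie at the lower right (Msi2 from 412 CPM, Igf2bp3 up to 0.79 CPM), the 6 BC CML libraries at the upper left (Msi2 up to 289.6 CPM, Igf2bp3 from 15.8 CPM), and the miR-142 KO and CP CML libraries share a range of Msi2 but not of Igf2bp3.

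Because the libraries are bulk LSKs, a lower level of a transcript can come from fewer cells of a type that holds it or from less of it per cell, and these cannot be told apart. Markers of the cell types in the gate moved with the groups. The summed level of 10 stem cell markers (among them Procr, Hlf, Mecom and Fgd5), none of them at 0 in a whole group, was 768 to 1316 CPM in the WT, 688 to 930.5 in the CP CML, 550 to 853 in the miR-142 KO and 501 to 657 in the BC CML libraries. Its median was highest in WT and lowest in BC CML LSKs, as were those of the lymphoid-primed (2106 and 636 CPM) and erythroid markers (113.5 and 3.77 CPM) and of Msi2. The summed level of Ly6a, Kit and Cd34 was also highest in WT and lowest in BC CML LSKs at the median (2123 and 1907 CPM). Of the 10 stem cell markers, 1 rose and 5 fell in BC CML against CP CML LSKs, and 2 rose and 5 fell in miR-142 KO against WT LSKs (60% and 70%, beside 38.0% and 36.3% of all genes), with the same counts when miR-142 KO replicate 3 was left out. The summed level of 6 mast cell or basophil markers was 80.5 to 569.9 CPM in the WT, 224 to 2610 in the miR-142 KO, 1486 to 2918 in the CP CML and 4204 to 8952 in the BC CML libraries. The 6 markers of neutrophil-primed progenitors summed to 1249 to 4858, 2769 to 7552, 4490 to 7653 and 5838 to 8574 CPM in the same order of groups. Within these sums Mpo, which lies 36.86 kb from Mir142, had means of 1926, 4122, 4209 and 3950 CPM in that order. The 5 lymphoid-primed markers in the table summed to 1809 to 2775, 497 to 1049, 936 to 1456 and 544 to 854 CPM, again in that order. Replicate 3 alone set the lower limits of the miR-142 KO group for these last 2 lists, and without it they were 6196 and 858 CPM. The upper limit of the WT group for the neutrophil-primed markers came from replicate 3 of that group, above 2599 CPM in the next library, and the lower limit of the miR-142 KO group for the mast cell or basophil markers from replicate 5, below 407 CPM in the next. The part of any of these in the levels of the 6 genes was not tested.

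Published Musashi-2 target transcripts other than Numb were followed next, in a list of 15 genes that also holds the paralog Msi1. Of these, 13 were tested, and Msi1 was not. In BC CML against CP CML LSKs 5 rose and 2 fell (53.8%), and in miR-142 KO against WT LSKs 2 rose and 4 fell (46.2%), beside 38.0% and 36.3% of all genes. The medians were 0.014 and 0.159 on the log2 scale beside 0.014 and 0.005 for all genes. Tgfbr1, a receptor of TGF-beta, rose by 1.14 (edgeR adjusted p = 1.163e-09) and 0.73 (edgeR adjusted p = 9.869e-07) in the 2 comparisons, from means of 89.6 CPM in CP CML to 197 in BC CML and from 74.7 in WT to 124 CPM in miR-142 KO LSKs. Smad3, which carries the TGF-beta signal, fell by 0.23 (edgeR adjusted p = 0.003485) and 0.18 (edgeR adjusted p = 0.02048). Ikzf2, encoding the transcription factor Helios, rose by 0.37 (edgeR adjusted p = 0.0003043) and 0.54 (edgeR adjusted p = 3.329e-06).

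Flt3, a cytokine receptor that is also on the list of lymphoid-primed markers, fell by 1.23 in both comparisons (edgeR adjusted p = 1.054e-06 and 9.163e-07), from 695 to 297 CPM and from 869.8 to 369.6 CPM. Hoxa9, a homeobox gene of stem and leukemic cells, fell by 0.60 in miR-142 KO against WT LSKs (edgeR adjusted p = 0.0001131), while its value in BC CML against CP CML LSKs was -0.04 (edgeR adjusted p = 0.777). The difference between these was 0.56 (edgeR adjusted p = 0.03501), and 0.52 (edgeR adjusted p = 0.05504) without miR-142 KO replicate 3. The list moved in both directions. Translation, on which Musashi-2 acts, was not measured.

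NUMB opposes Notch, and 35 of 39 Notch pathway genes were tested. In BC CML against CP CML LSKs 7 rose and 8 fell (42.9%), and in miR-142 KO against WT LSKs 8 rose and 11 fell (54.3%), beside 38.0% and 36.3% of all genes. The medians were -0.018 and 0.04. Notch1, the receptor gene, fell by 0.65 (edgeR adjusted p = 0.001551) and by 1.33 (edgeR adjusted p = 4.005e-07), from means of 175 CPM in CP CML to 112 in BC CML and from 319 in WT to 126 CPM in miR-142 KO LSKs. Maml3, a coactivator of Notch, fell by 0.50 (edgeR adjusted p = 0.0003483) and 0.45 (edgeR adjusted p = 0.0009323).

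The named genes that act on the receptor protein or its ligands rose. Furin, a protease that cuts Notch precursors among many others, rose by 1.36 (edgeR adjusted p = 3.305e-08) in BC CML against CP CML LSKs, from a mean of 152 to 391 CPM, and by 0.63 (edgeR adjusted p = 0.0006607) in miR-142 KO against WT LSKs. The difference between these was 0.74 (edgeR adjusted p = 0.02481). Adam10, the protease that sheds the receptor's outer part, rose by 0.46 (edgeR adjusted p = 7.291e-07) and 0.36 (edgeR adjusted p = 1.819e-05), and Mib1, a ubiquitin ligase for Notch ligands, by 0.28 (edgeR adjusted p = 0.0005299) and 0.49 (edgeR adjusted p = 7.555e-07). Hes1, the classical Notch target, had values of -0.01 (edgeR adjusted p = 0.987) and 0.76 (edgeR adjusted p = 0.1013) and was looked up for its role, outside the rule for named genes.

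The 23 partners of NUMB in endocytosis, ubiquitylation and cell polarity were all tested. In BC CML against CP CML LSKs 11 rose and 2 fell (56.5%, median 0.13), and in miR-142 KO against WT LSKs 9 rose and 2 fell (47.8%, median 0.08), beside 38.0% and 36.3% of all genes. Ctnnb1, encoding beta-catenin, rose by 0.81 (edgeR adjusted p = 4.393e-12) and 0.72 (edgeR adjusted p = 6.77e-11), from 482 to 844.5 CPM and from 479.7 to 788 CPM. Siah1b, a ubiquitin ligase gene, rose by 0.60 (edgeR adjusted p = 8.724e-06) and 0.41 (edgeR adjusted p = 0.0006664), and the kinase gene Bmp2k by 0.45 (edgeR adjusted p = 0.0001448) and 0.39 (edgeR adjusted p = 0.000649).

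The polarity genes Pard3 and Prkcz rose too, from very low levels. Pard3 went from 0.10 to 1.30 CPM in the CML groups (3.64 on the log2 scale, edgeR adjusted p = 0.0001194) and from 0.11 to 1.99 CPM in the groups without BCR-ABL (4.15, edgeR adjusted p = 1.578e-05). Prkcz, encoding an atypical protein kinase C, had means under 1 CPM throughout and rose by 1.71 (edgeR adjusted p = 0.01298) and 1.64 (edgeR adjusted p = 0.004978). Ap2a2, encoding a subunit of the endocytic adaptor AP-2, had a value of -0.01 (edgeR adjusted p = 0.8508) in BC CML against CP CML LSKs and fell by 0.15 (edgeR adjusted p = 0.01879) in miR-142 KO against WT LSKs. With BCR-ABL, 1 of the 23 rose and 4 fell in CP CML against WT LSKs (21.7%, beside 45.4% of all genes), and 3 rose and 5 fell in BC CML against miR-142 KO LSKs (34.8%, beside 39.6%). Without miR-142 KO replicate 3 the second count was 6 risen and 5 fallen (47.8%, beside 47.6% of all genes).

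IGF2BP3 is tied to LIN28 and the let-7 microRNAs, and 10 of 12 other genes of this axis were tested. In BC CML against CP CML LSKs 1 rose and 1 fell (20%), beside 38.0% of all genes. In miR-142 KO against WT LSKs 1 rose and 2 fell (30%), beside 36.3% of all genes. The medians were -0.072 and 0.017. Lin28b, which blocks let-7, had 1 to 23 counts per library and values of 0.91 (edgeR adjusted p = 0.2431) and 0.67 (edgeR adjusted p = 0.3598). Hmga2, a let-7 target known from fetal stem cells, had a value of 0.09 (edgeR adjusted p = 0.7134) and fell by 0.49 (edgeR adjusted p = 0.03331) in miR-142 KO against WT LSKs, a call that was lost without miR-142 KO replicate 3 (-0.44, edgeR adjusted p = 0.07556). Hmga1 rose by 0.33 (edgeR adjusted p = 0.03954) and 0.60 (edgeR adjusted p = 0.0007235). Zcchc11, a uridylyl transferase that acts on let-7 precursors, fell by 0.32 (edgeR adjusted p = 0.001466) and 0.21 (edgeR adjusted p = 0.02771), and the second call was also lost without that library (-0.17, edgeR adjusted p = 0.08815). Its paralog Zcchc6 (-0.09 and -0.12, edgeR adjusted p = 0.2228 and 0.09534) and the let-7 target Arid3a (0.02 and 0.21, edgeR adjusted p = 0.9186 and 0.2126) missed the threshold, Arid3a passing in the second without that library (0.32, edgeR adjusted p = 0.03634). Without miR-142 KO replicate 3, 2 of the 10 rose and 0 fell in miR-142 KO against WT LSKs (20%, beside 33.5% of all genes).

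Of 18 tested genes that write, read or erase m6A, 2 rose and 1 fell in each of the comparisons (16.7%, beside 38.0% and 36.3% of all genes), with medians of 0.02 and 0.017. Rbm15, part of the writer complex, fell by 0.25 (edgeR adjusted p = 0.0001597) and 0.28 (edgeR adjusted p = 3.592e-05), and the reader gene Ythdf3 rose by 0.32 (edgeR adjusted p = 0.001095) and 0.19 (edgeR adjusted p = 0.03726). Elavl1, an mRNA-stabilizing protein that works with IGF2BPs, rose by 0.19 (edgeR adjusted p = 0.01253) in BC CML against CP CML LSKs and had a value of 0.09 (edgeR adjusted p = 0.2377) in the other. Zc3h13 had values of 0.05 (edgeR adjusted p = 0.427) and, past the threshold, 0.11 (edgeR adjusted p = 0.0482, and 0.098 with an edgeR adjusted p = 0.0789 without miR-142 KO replicate 3), and Mettl3, the catalytic writer, had 0.09 (edgeR adjusted p = 0.3508) and -0.17 (edgeR adjusted p = 0.05968). Ythdc2 had 0.13 (edgeR adjusted p = 0.1719) and 0.08 (edgeR adjusted p = 0.4343).

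Of 27 tested hnRNP genes and SYNCRIP partners, 8 rose and 1 fell in BC CML against CP CML LSKs (33.3%) and 6 rose and 0 fell in miR-142 KO against WT LSKs (22.2%), beside 38.0% and 36.3% of all genes. The median was 0.075 in both. Hnrnpc rose by 0.28 (edgeR adjusted p = 0.0005929), Paip1 by 0.30 (edgeR adjusted p = 0.0007236) and Hnrnph2 by 0.21 (edgeR adjusted p = 0.004474) in BC CML against CP CML LSKs, with values of 0.09, 0.12 and 0.06 that missed the threshold in the other comparison (edgeR adjusted p = 0.2377, 0.1529 and 0.3836). Hnrnpll rose in both (0.17, edgeR adjusted p = 0.02525, and 0.19, edgeR adjusted p = 0.01817), and Hnrnpa0 had -0.01 (edgeR adjusted p = 0.9245) and rose by 0.17 (edgeR adjusted p = 0.01017) with loss of miR-142 alone.

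Of 8 tested genes that surround other RNA-binding proteins of blast crisis, 1 rose and 0 fell in BC CML against CP CML LSKs (12.5%). In miR-142 KO against WT LSKs 2 rose and 0 fell (25%). Of all genes 38.0% and 36.3% passed in these comparisons. C330027C09Rik, the table's symbol for Cip2a, which encodes an inhibitor of protein phosphatase 2A, rose by 0.47 (edgeR adjusted p = 0.0004303) and had 0.16 (edgeR adjusted p = 0.1776) in the other. Cebpa, whose mRNA is held back by hnRNP E2 in blast crisis, had 0.36 (edgeR adjusted p = 0.05381) and rose by 0.74 (edgeR adjusted p = 0.0003582) in miR-142 KO against WT LSKs. Pcbp2, encoding hnRNP E2, had 0.03 (edgeR adjusted p = 0.6921) and rose by 0.16 (edgeR adjusted p = 0.02292), while Hnrnpk (0.03 and 0.06, edgeR adjusted p = 0.7842 and 0.563) and Hnrnpa1 (-0.20 and -0.22, edgeR adjusted p = 0.1381 and 0.09401) missed the threshold in both.

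**Figure D5:**
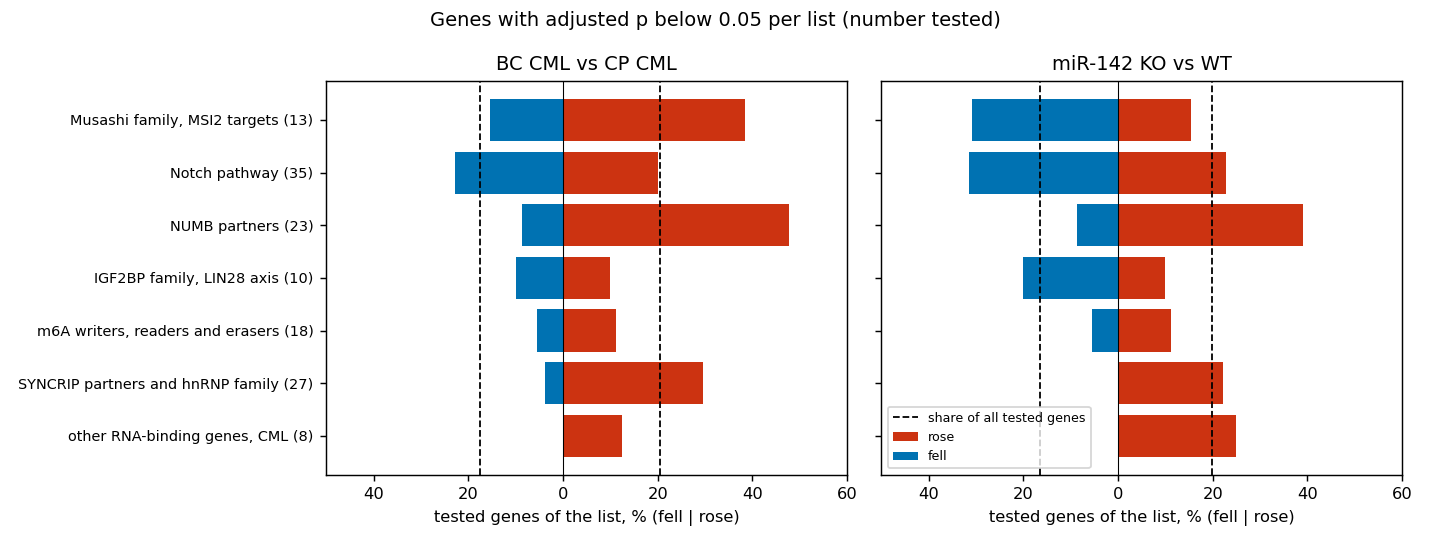
Share of the tested genes of each list (horizontal axis, %) with an adjusted p below 0.05 that rose (red, right) or fell (blue, left), in BC CML against CP CML and in miR-142 KO against WT LSKs, with the number tested after each list's name. Dashed lines mark the shares of all tested genes (20.4% and 17.6%, 19.9% and 16.4%), and the partners of NUMB reach furthest to the right, with 11 and 9 of 23 genes.

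The seed matches shown above were set beside the changes of all genes that hold them. Of 390 tested genes with ACACTACA in the longest 3′ UTR, as in Msi2, 163 rose (41.8%) and 54 fell (13.8%) in BC CML against CP CML LSKs, with a median of 0.15, beside 21.3% and 17.5% and a median of 0.02 for all 12612 tested genes with an annotated 3′ UTR. In miR-142 KO against WT LSKs 148 rose (37.9%) and 49 fell (12.6%), with a median of 0.11 beside 0.01. Msi2 was among the genes that fell in both comparisons. Of 879 genes with ACACTAC, as in Igf2bp2 and Syncrip, those with the 8 letters included, 36.7% rose and 12.5% fell in the first comparison. For ACTTTATA, held by Igf2bp3, the shares were 23.2% and 17.5% of 652 genes, near those of all genes. Igf2bp3, with the largest rise of the 6, held matches to the 5p arm and none to the 3p arm.

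The genes whose levels ran most like those of each of the 6 were sought, by the Pearson correlation of log2 CPM over the 24 libraries, among the 12268 genes whose mean reached 1 CPM. For Msi2 they were Paip2 (0.959), Armcx1 (0.958), Fnbp1l (0.958), Ttc3 (0.958) and Tet1 (0.953). For Igf2bp3 they were Ldlrad3 (0.980), Pam (0.976) and Ube2k (0.975), for Syncrip Naa50 (0.964), Atad1 (0.950) and Otud4 (0.942), and for Igf2bp2 Adgrl2 (0.930) and Zfpm1 (0.883). The values were lower for Numb, with Prkcb (0.905), Tmem158 (0.897) and Pros1 (0.891), and for Numbl, with Tnfsf4 (0.721), Mau2 (0.698) and Stac3 (0.674). With the group means removed, the closest to Msi2 were Ppp2r3a (0.885), Elk4 (0.885) and Map7 (0.880), none of which was on its first list, while Naa50 (0.953, after Kpna3 with 0.957) for Syncrip and Prkcb (0.804, after Pla2g7 with 0.806) for Numb came up both ways. The others were Gucy1a3 (0.824) and Fhl1 (0.822) for Igf2bp2, Fcf1 (0.825) and BC055324 (0.822) for Igf2bp3, and Tspan32 (0.715) and Ddrgk1 (0.699) for Numbl. These correlations are descriptions, since libraries of 1 group share genotype and treatment.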

How the data were processed

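Bulk RNA-seq of sorted LSKs (Kapa mRNA HyperPrep libraries) was analyzed in 24 libraries, 1 per mouse, 6 in each of 4 groups (3 females and 3 males). The study's methods state 5 per group without naming them, and all 6 were used. The table deposited by the authors holds counts of reads on each gene, not normalized, with the gene length in kilobases in a further column. Per the study's methods and the submitters' processing notes, adapters were removed with Trimmomatic and poly(A) tails with FASTP, STAR 2.6.0 placed the reads on mm10, and HTSeq 0.11.1 counted them. The annotation and the strand setting are not given in the sources used here. All columns of counts were matched to a mouse.

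Counts were tested in edgeR 4.0.16 (R 4.3.3) by quasi-likelihood tests with TMM and filterByExpr, on a model of all 24 libraries, with adjustment by Benjamini-Hochberg over 13520 genes (threshold 0.05, common dispersion 0.0284). The authors used the likelihood ratio test of edgeR, which is an alternative here. BC CML was compared with CP CML and with miR-142 KO, and WT with miR-142 KO and with CP CML. The effects of miR-142 loss with and without BCR-ABL were compared by their difference. Library totals were 16267965 to 24687077 counts; a count of 0 allows up to 3 counts, for counting error only. Labels do not say whether mice shared a litter or a sort, so p-values measure the spread between these mice. RPKM were computed from the counts and the deposited lengths. Correlations used log2 CPM with a prior count of 2. 3′ UTRs came from GENCODE annotation and transcripts on GRCm38, microRNA sequences from RefSeq. Steps were tested on simulated data.

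The 6 genes, the lists and the rule for named genes were chosen with earlier results of these data known. Named were the 6 genes, Mir142, Msi1 and Igf2bp1, per list up to 4 genes with the smallest p in BC CML against CP CML and 2 more in miR-142 KO against WT LSKs, up to 4 genes between Mir142 and Msi2, and the genes most like each of the 6. Some genes that this rule named are not reported here. The genes overlapping or adjoining Msi2 and Hes1 were named after their values were seen. Alternatives were the likelihood ratio test, DESeq2 1.42.0, RLE and upper quartile scaling, no filter, at least 1 CPM in 6 libraries, sex as a covariate, only the libraries compared, females or males alone, a prior count of 0.5, all transcripts for the 3′ UTRs, and each mouse left out.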

Additional observations from a re-analysis of the deposited data

Results flagged for a closer look

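In 24 groups of 6 libraries (6 genes by 4 groups), the highest or lowest library was compared with its nearest neighbor relative to the range, and 2 groups passed Dixon's critical ratio at 95%, which chance passes in about 1 of 20 groups. Both were miR-142 KO replicate 3, a female, with 6.11 CPM of Igf2bp2 (ratio 0.655), the lowest of its group, and 24.6 CPM of Igf2bp3 (ratio 0.720), the highest. The same library had the lowest summed level of its group for every marker list except mast cell or basophil and T or NK cell. Among these low sums were those of erythroid cells (5.93 CPM) and macrophages (9.42 CPM). This library also had the fewest detected genes of the 24 (15312). It had 0 counts of Mir142, like the rest of its group. The part of these in its Igf2bp2 and Igf2bp3 levels was not tested.

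For Hoxa9, on the list of Musashi-2 targets, the change with loss of miR-142 differed between the groups with and without BCR-ABL by 0.56 (edgeR adjusted p = 0.03501). Without miR-142 KO replicate 3 it was 0.52 (edgeR adjusted p = 0.05504). Furin, on the list of Notch pathway genes, differed by 0.74 (edgeR adjusted p = 0.02481), and by 0.67 (edgeR adjusted p = 0.03526) without that library.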

How the results depend on the processing

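Of 294 results of the 6 genes under alternatives other than leaving out a mouse, 271 kept their direction and side of the threshold, 13 lost the call, 1 gained it and 9 turned direction, the last all values of Syncrip, Numbl or Igf2bp2 that missed the threshold before and after. Syncrip turned to -0.015 (BC CML against CP CML) and -0.0402 (miR-142 KO against WT) with upper quartile scaling, to -0.0013 (difference) with at least 1 CPM in 6 libraries, to -0.0309 (miR-142 KO against WT) in females, and to -0.0089 (BC CML against CP CML) and -0.0482 (difference) in males. In females Numbl turned to 0.0457 (CP CML against WT) and Igf2bp2 to 0.1634 (BC CML against CP CML), and in males Numbl turned to 0.0564 (difference). Leaving out each mouse moved 16 of 720 results across the threshold, 11 to above and 5 to below it, and turned the direction of 30 that missed it. In the comparisons concerned, the values below cover every mouse left out, whether the direction turned or not. Syncrip ran from -0.0224 to 0.0399 (BC CML against CP CML), -0.0429 to 0.0731 (miR-142 KO against WT) and -0.0581 to 0.058 (difference). Igf2bp2 ran from -0.1325 to 0.0101 (BC CML against CP CML). Numbl ran from -0.0679 to 0.0094 (CP CML against WT), -0.0851 to 0.0012 (BC CML against miR-142 KO) and -0.0709 to 0.0155 (difference). No paired analysis was possible because the labels carry mouse numbers that no groups share. The rise of Numb in miR-142 KO against WT LSKs was the least stable. It was 0.19 (adjusted p = 0.05327) by the likelihood ratio test, 0.14 (edgeR adjusted p = 0.1311) with upper quartile scaling, 0.19 (0.06079) with no filter, 0.18 (0.116) with only the libraries compared, 0.19 (0.271) in females and 0.17 (0.2127) in males, and ran from 0.14 to 0.22 with a mouse left out, the call being lost without WT replicate 2 or 6 or without miR-142 KO replicate 1, 2, 4 or 6.

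The call of Igf2bp2 in CP CML against WT LSKs (with a mouse left out -0.49 to -0.38) and the values of Syncrip in CP CML against WT (0.16 to 0.22) and in BC CML against miR-142 KO LSKs (0.13 to 0.25) crossed the threshold with single mice left out, as did the difference between the miR-142 changes for Igf2bp2 (-0.66 to -0.48). With only the libraries compared, Syncrip passed in CP CML against WT LSKs (0.18, edgeR adjusted p = 0.02962). With females alone, the edgeR values were -0.39 (adjusted p = 0.06145) for Msi2 in BC CML against CP CML, 0.24 (0.4558) for Igf2bp2 in miR-142 KO against WT, 1.43 (0.1203) for Igf2bp3 in CP CML against WT, and -0.39 (0.0725), 0.24 (0.2084) and 1.14 (0.1321) for Msi2, Numb and Igf2bp3 in BC CML against miR-142 KO LSKs. With males alone, Igf2bp2 was at -0.17 (0.5286) in CP CML against WT LSKs. These fits held 3 mice per group, and fewer genes passed: 1693, 2308, 3059, 938 and 28 in females, in place of 5137 (BC CML against CP CML), 4907 (miR-142 KO against WT), 6143 (CP CML against WT), 5358 (BC CML against miR-142 KO) and 539 (difference), and 2915 (miR-142 KO against WT), 3749 (CP CML against WT) and 50 (difference) in males. DESeq2 called 891 genes for the difference.

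With 3′ UTRs of all transcripts joined, 15% of genes held ACTTTAT and 6.38% held ACACTAC. Without miR-142 KO replicate 3, an alternative chosen after seeing the data, 7 in place of 4 m6A genes and 2 in place of 1 other RNA-binding gene passed in BC CML against miR-142 KO LSKs, and 8 in place of 5 genes within 1 Mb of Mir142 passed for the difference. The share of all tested genes that passed also rose without that library, from 39.6% to 47.6% in BC CML against miR-142 KO LSKs. For the difference, the share of all tested genes rose from 3.99% to 5.68%. Whether the counts of these lists changed beyond this general rise was not tested. Of the 2 genes most like Igf2bp2 without group means, 1 stayed with a prior count of 0.5. Depth limited Igf2bp3 in WT LSKs (8 to 18 counts) and left Msi1 and Igf2bp1 untested.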
